A study of Mus musculus with 6 samples.

Results

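The 7 genes described here encode the enzymes and regulators of polyamine metabolism: Odc1, Amd1, Srm and Sms for synthesis, Sat1 for acetylation, and Oaz1 and Azin1 for the antizyme control of synthesis. They were taken as the rows of the deposited expression table whose gene name equals one of these symbols, which gave 7 of 10041 rows, and all 7 passed the filter on low values, as did 9986 rows in all. The cells were mouse naive CD4 T cells cultured for 48 h towards the Th17 fate, helper T cells that make the cytokine IL-17, on plate-bound antibody to CD3e (10 µg/ml). The medium held 1 µg/ml of antibody to CD28 and, as cytokines, IL-23 at 10 ng/ml, TGF-β1 at 2.5 ng/ml and IL-6 at 20 ng/ml. One group of 3 libraries received the vehicle DMSO, and the other group of 3 received 2.5 ng/ml of oligomycin, an inhibitor of ATP synthase that stops oxidative phosphorylation in mitochondria. All 6 libraries shared the polarizing mixture, so no group without it was compared. The sources used here do not say whether the libraries of a group came from separate animals or cultures, so p-values then measure only the spread between these libraries. The comparison asks how the transcripts of the pathway depend on mitochondrial oxidative phosphorylation.

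Polyamines are small, positively charged metabolites that growing cells need for translation and for chromatin structure. Ornithine decarboxylase (Odc1) makes putrescine from ornithine, S-adenosylmethionine decarboxylase (Amd1) supplies the aminopropyl donor, and spermidine synthase (Srm) and spermine synthase (Sms) add aminopropyl groups in turn. Spermidine/spermine acetyltransferase (Sat1) marks the products for export or oxidation, and antizyme (Oaz1) binds ornithine decarboxylase and sends it to the proteasome without ubiquitin, while the antizyme inhibitor (Azin1), a relative of ornithine decarboxylase without its activity, takes antizyme away from it. T cells raise polyamine synthesis when they are activated, and spermidine is also the donor for hypusine, a modified amino acid of the translation factor eIF5A.

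Expression was given as FPKM, which divides a gene's fragments by transcript length and by the size of the library. Levels can therefore be compared between genes, but they are relative to the library and not amounts per cell. The FPKM of a library summed to between 1434028 (DMSO replicate 1) and 2103404 (oligomycin replicate 2). Without the 185 rows of small RNAs the sums were 367867 (oligomycin replicate 3) to 422836 (DMSO replicate 2). In these bulk samples, fewer cells of a type and less RNA per cell cannot be told apart. The sequencing depth is unknown. Pearson correlations between libraries, of log2(FPKM + 1) over the tested genes, were 0.963 to 0.969 among the DMSO libraries, 0.940 to 0.962 among the oligomycin libraries and 0.890 to 0.937 between the groups. Of 3 Th17 genes looked up, all had a row: Il17a and Il17f averaged 247 ± 15.4 and 1470 ± 129 FPKM with DMSO and 12.5 ± 2.45 and 297 ± 75.5 with oligomycin (SD, n = 3), and Il23r 5.70 ± 2.23 and 0.454 ± 0.0671. The Th17 cytokine genes were thus present in both groups and lower in every treated library. The 6 listed CD4 T cell markers (Cd3d, Cd3e, Cd3g, Cd4, Cd5 and Cd28) summed to 791 to 928 FPKM with DMSO and to 770 to 892 with oligomycin. Of the 20 listed markers of other cells, 4 had a row and none of the 4 for B cells or the 3 for NK cells did: Cd8b1 (2.63 to 3.12 and 2.41 to 3.30 FPKM), Cd68 (1.08 to 2.07 and 2.39 to 5.07), and H2-Aa with H2-Ab1, which summed to 19.8 to 27.8 with DMSO and 1.94 to 7.09 with oligomycin. That sum followed H2-Ab1, at 21.9 ± 4.58 and 1.695 ± 0.919 FPKM (SD, n = 3 each), while H2-Aa, at 1.46 ± 1.21 and 2.46 ± 1.75 FPKM, had the higher mean with oligomycin. The part of these cells in the results was not tested.

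Sequence is given at the site that controls antizyme and upstream of Odc1 and Sms. Antizyme is made only when ribosomes skip a base in Oaz1 mRNA, a shift that polyamines favour. GENCODE M21 models it as a gap of 1 base in the coding sequence, at position 80828295 of chromosome 10, in 3 Oaz1 transcripts. In 1 of these transcripts, read without the shift, the frame from the start codon met its first stop after 66 codons. With the shift it ran for 210 codons. The longest annotated coding sequence of Oaz1 held 681 bases, so 210 codons is not the length in every transcript. The stretch around the site (chr10:80828268-80828324, GRCm38, plus strand, within the coding sequence) has in capitals the last codon of the first frame and the stop codon that the shift avoids.
Oaz1 frameshift site: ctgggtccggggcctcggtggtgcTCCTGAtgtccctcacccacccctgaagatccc

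RefSeq promoter windows (GRCm38.p6, 250 bases before to 50 after the start) matched 5 of the 7 genes with 6 windows, and Srm and Azin1 had no entry. The E-box CACGTG, bound by Myc and its partners, occurred in 1 of the 6 windows, an upstream window of Sms, against 7.15% of all 32851 windows. The window of Odc1 held none, and bases outside the windows were not searched, so an E-box elsewhere in a gene would be missed. The GC box GGGCGG, searched on both strands (CCGCCC on the other), occurred in 35.7% of all windows and in 4 of the 6 member windows. It was found 4 times in the window of Odc1 (78% G or C), 4 times in the other window of Sms (74.3% G or C), 2 times in that of Sat1 and 1 time in that of Amd1. The upstream parts of the Odc1 and Sms windows are given because these were the members whose groups did not overlap between treatments. For Sms, the window was chosen because it holds the E-box, and the other Sms window is not printed. They are the bases before every annotated start, chr12:17544623-17544793 on the plus strand for Odc1 and chrX:157492288-157492537 on the minus strand for Sms, with 3 of the 4 GC boxes of Odc1 and the E-box of Sms in capitals. A match is a run of letters, not a site shown to be bound.
Odc1 upstream: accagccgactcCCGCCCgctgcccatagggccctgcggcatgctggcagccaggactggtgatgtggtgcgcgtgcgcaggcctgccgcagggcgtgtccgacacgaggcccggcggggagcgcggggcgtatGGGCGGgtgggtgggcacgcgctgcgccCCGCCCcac
Sms upstream: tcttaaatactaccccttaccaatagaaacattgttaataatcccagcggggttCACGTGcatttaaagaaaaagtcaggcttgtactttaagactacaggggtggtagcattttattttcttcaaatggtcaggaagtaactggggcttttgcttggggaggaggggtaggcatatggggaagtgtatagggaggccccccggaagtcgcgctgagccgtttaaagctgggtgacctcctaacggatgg

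Odc1, the gene of the first and rate-limiting enzyme, fell with oligomycin, and no other member passed the test in either direction. The gene of spermine synthase, Sms, was lower in every oligomycin library than in every DMSO library but missed the threshold. The levels of Amd1, Srm, Sat1, Oaz1 and Azin1 overlapped between the groups. The test was limma on log2(FPKM + 1) with Benjamini-Hochberg adjustment over the 9986 genes tested and a threshold of 0.05, and the share of all tested genes that it called was 30.2% (14% higher, 16.1% lower). The count of 1 of 7 members, 0 higher and 1 lower, is to be read against that share, and by an unadjusted p under 0.05 it was 2 of 7, against 42.8% of all genes tested. The groups did not overlap for 2 of 7 members, both lower with oligomycin, against 47.3% of all genes tested (23.1% higher, 24.3% lower). The median log2 change of the 7 members was -0.11, and that of all genes tested was -0.004421.

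**Figure D1:**
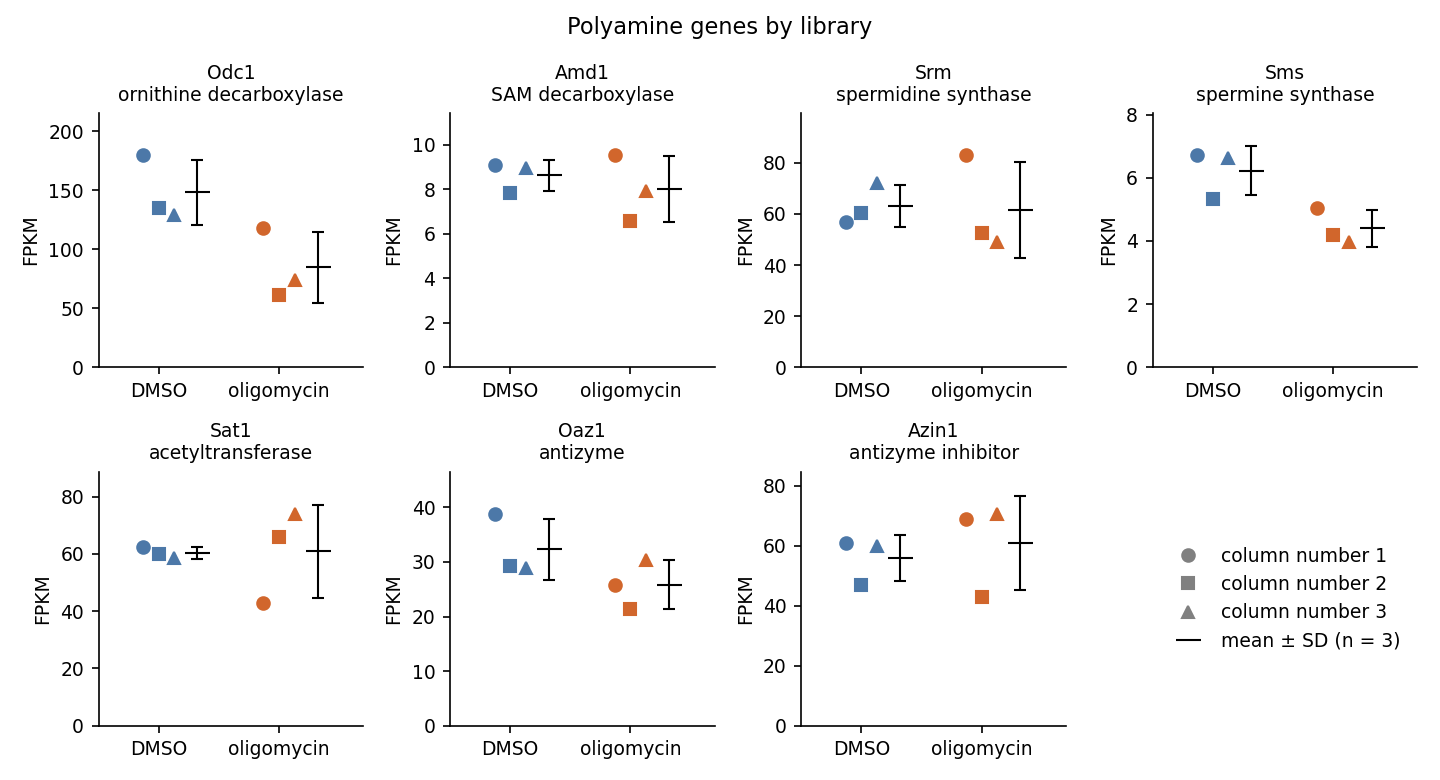
FPKM of the 7 polyamine genes in each library (1 panel per gene, linear axis from 0), with DMSO in blue and oligomycin in orange, the marker shape giving the number on the deposited column, and bars giving mean ± SD (n = 3). The oligomycin libraries lie below all DMSO libraries for Odc1 and Sms, and the groups overlap for the other 5 genes.

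Odc1 (XLOC_004128, chromosome 12, 17544873 to 17551502, plus strand, GRCm38) stood at 179, 135 and 129 FPKM in DMSO replicates 1, 2 and 3 and at 118, 61.4 and 73.9 FPKM in oligomycin replicates 1, 2 and 3. Every oligomycin library was below every DMSO library, although oligomycin replicate 1 lay close to the lowest of them. The means were 148 ± 27.4 FPKM (SD, n = 3) and 84.5 ± 29.8 FPKM (SD, n = 3), a 1.75-fold lower mean with oligomycin. The log2 change was -0.84 (SE 0.24, 95% interval -1.38 to -0.30, adjusted p = 0.0294, limma). Without oligomycin replicate 1 it was -1.11 (adjusted p = 0.00339). The call was lost when any other single library was left out, with log2 changes from -0.93 to -0.64 and adjusted p from 0.0539 to 0.0992, and under quantile normalization (-0.66, adjusted p = 0.0506). A small nucleolar RNA gene (Gm22748 in GENCODE M21) lies within Odc1 on the same strand and had no row of its own.

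The other decarboxylase gene was not called, and its change was not tested against that of Odc1. Amd1 (XLOC_001945, chromosome 10, 40287458 to 40302188, minus strand) stood at 9.09, 7.82 and 8.94 FPKM with DMSO and at 9.52, 6.57 and 7.91 FPKM with oligomycin. Both its highest and its lowest library were oligomycin libraries. The log2 change was -0.11 (95% interval -0.45 to 0.23, adjusted p = 0.607, limma), and without oligomycin replicate 2 it was 0.01. Copies of Amd1 were searched by name only, and their sequences were not compared with it. GENCODE M21 names Amd2 and 5 processed pseudogenes, of which none had a row. No source used here says how reads shared with them were counted, so the level of Amd1 is uncertain.

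The aminopropyl transferases, which use the donor that Amd1 supplies, differed in pattern. Srm (XLOC_014242, chromosome 4, 148591513 to 148594619, plus strand) stood at 56.8, 60.2 and 72.3 FPKM with DMSO and at 82.9, 52.5 and 49.0 FPKM with oligomycin. Oligomycin replicate 1 was the highest of all libraries and the other two oligomycin libraries were the lowest. The log2 change of Srm was -0.07 (95% interval -0.53 to 0.39, adjusted p = 0.813, limma). It was -0.30 without oligomycin replicate 1 (adjusted p = 0.123) and turned to 0.06 under quantile normalization. Sms (XLOC_023064, chromosome X, 157443954 to 157492046, minus strand) stood at 6.71, 5.32 and 6.63 FPKM with DMSO and at 5.05, 4.18 and 3.95 FPKM with oligomycin. These groups did not overlap, but the gap between the lowest DMSO and the highest oligomycin library was small. The means of Sms were 6.22 ± 0.779 and 4.39 ± 0.581 FPKM (SD, n = 3 each), and its log2 change was -0.42 (SE 0.15, 95% interval -0.75 to -0.09, adjusted p = 0.0581, limma). Without oligomycin replicate 1 Sms passed the threshold (-0.51, adjusted p = 0.0399). A processed pseudogene, Sms-ps, had no row.

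Sat1, the gene of the acetyltransferase that starts polyamine breakdown, was steady among the DMSO libraries and spread out among the oligomycin libraries. Sat1 (XLOC_023060, chromosome X, 155213139 to 155216409, minus strand) stood at 62.6, 60.1 and 58.6 FPKM with DMSO, a coefficient of variation of 3.34%. With oligomycin it stood at 42.8, 66.1 and 74.0 FPKM, a coefficient of variation of 26.6%. Replicate 1 lay below and replicates 2 and 3 above all DMSO libraries. The log2 change was -0.02 (95% interval -0.46 to 0.41, adjusted p = 0.933, limma), and 0.21 without oligomycin replicate 1 (adjusted p = 0.187). Under quantile normalization it was 0.13, and 0.09 with equal sums of the rows other than small RNA rows. The 95% interval spans from a 0.728-fold to a 1.33-fold level, so these libraries did not exclude changes in either direction within it.

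Of the antizyme pair, neither gene was called. Oaz1 (XLOC_001588, chromosome 10, 80826656 to 80829290, plus strand) stood at 38.8, 29.2 and 28.9 FPKM with DMSO and at 25.7, 21.4 and 30.3 FPKM with oligomycin. The groups overlapped through oligomycin replicate 3, which was above 2 of the DMSO libraries. The log2 change was -0.31 (95% interval -0.69 to 0.06, adjusted p = 0.182, limma). The microRNA gene Mir1982 lies within Oaz1 on the same strand and its row carries the same locus, and 1 processed pseudogene, Oaz1-ps, had no row. These values are of the mRNA and do not show how much of it was read through the frameshift.

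Azin1 (XLOC_007045, chromosome 15, 38487430 to 38519266, minus strand) stood at 60.8, 47.0 and 60.1 FPKM with DMSO and at 69.0, 42.8 and 70.6 FPKM with oligomycin. In both groups replicate 2 was the lowest. The log2 change of Azin1 was 0.09 (95% interval -0.37 to 0.56, adjusted p = 0.751, limma), and it turned to -0.03 without DMSO replicate 2, -0.01 without oligomycin replicate 1 and -0.03 without oligomycin replicate 3. Over 1337 aligned coding bases, 60.5% were identical between Odc1 and Azin1, and the longest identical run was 17 bases. GENCODE M21 places an antisense gene, Gm49077, over the start of Azin1, and no source used here says whether the counting used strand.

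**Figure D2:**
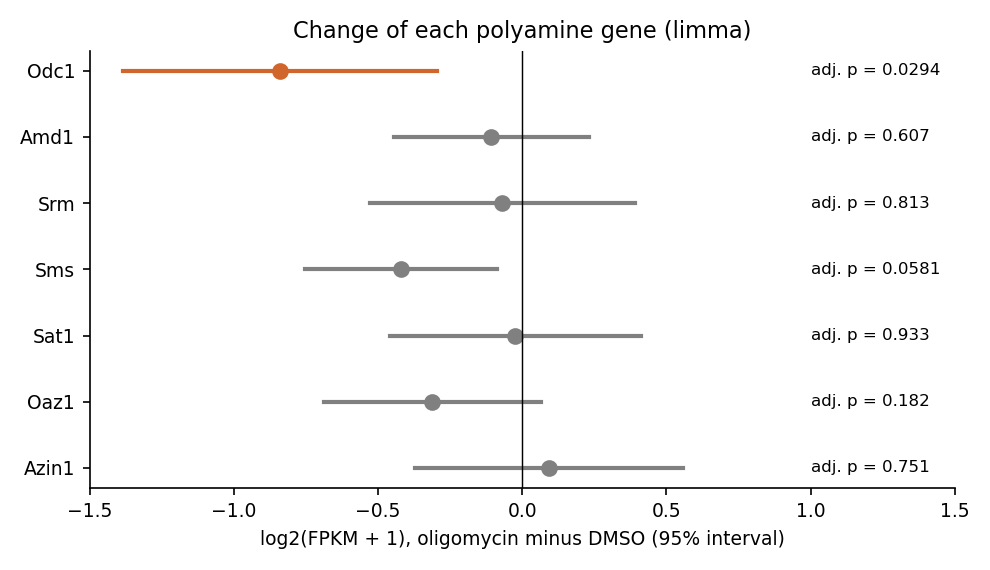
Log2 change of each gene, oligomycin minus DMSO on the log2(FPKM + 1) scale, with its 95% interval from limma and the adjusted p at the right. Odc1 (orange) is at -0.84 and passed the threshold, Sms at -0.42 has an interval below 0 but an adjusted p of 0.0581, and the intervals of the other 5 genes span 0.

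Among the members, Odc1 was the most abundant transcript in all DMSO libraries. The order there was Odc1, then Srm (63.1 ± 8.11 FPKM, SD, n = 3), Sat1 (60.4 ± 2.02) and Azin1 (56.0 ± 7.76), then Oaz1 (32.3 ± 5.64), Amd1 (8.62 ± 0.693) and Sms. Srm, Sat1 and Azin1 overlapped with each other, and every other pair of neighbours in that order was separate in all 3 libraries. With oligomycin, Odc1 overlapped with Srm (61.5 ± 18.7 FPKM), Sat1 (61.0 ± 16.2) and Azin1 (60.8 ± 15.6). Sat1 ranked first and Odc1 second in oligomycin replicates 2 and 3, whereas oligomycin replicate 1 kept the DMSO order of Odc1 first. Oaz1 (25.8 ± 4.45), Amd1 (8.0 ± 1.48) and Sms (4.39 ± 0.581) followed without overlap in both groups. By mean FPKM over the libraries, Odc1 stood above 94.5% of the rows other than small RNA rows and Sms above 22.4%.

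Ratios of 2 transcripts within a library do not change when a library is scaled by 1 factor. The ratio of Odc1 to Oaz1, the enzyme's transcript to that of its antizyme, was 4.62, 4.63 and 4.48 with DMSO and 4.60, 2.86 and 2.44 with oligomycin. Oligomycin replicate 1 had the ratio of the DMSO libraries and replicates 2 and 3 had lower ones, so the groups overlapped (log2 difference -0.53, 2-sided exact permutation p = 0.2). The ratio of Odc1 to Sat1, the transcript of a synthesis enzyme to that of the acetyltransferase, was 2.87, 2.25 and 2.21 with DMSO. With oligomycin it was 2.76, 0.929 and 0.999, the same division (log2 difference -0.82, exact permutation p = 0.3). It is a ratio of mRNA levels and not of enzyme activities. The ratio of Azin1 to Oaz1 was 1.57, 1.61 and 2.08 with DMSO and 2.69, 1.998 and 2.33 with oligomycin, which overlapped (log2 difference 0.42, exact permutation p = 0.2). Both ratios to Oaz1 carry the uncertainty of its locus, which is shared with Mir1982. The ratio of Srm to Sms was 8.47, 11.3 and 10.9 with DMSO and 16.4, 12.6 and 12.4 with oligomycin. It was higher in every oligomycin library (log2 difference 0.43, exact permutation p = 0.1, the smallest p that 3 against 3 libraries allow). Adjusted over these 4 ratios, the p-values ran from 0.267 to 0.3, and with 3 libraries per group none could reach 0.05.

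**Figure D3:**
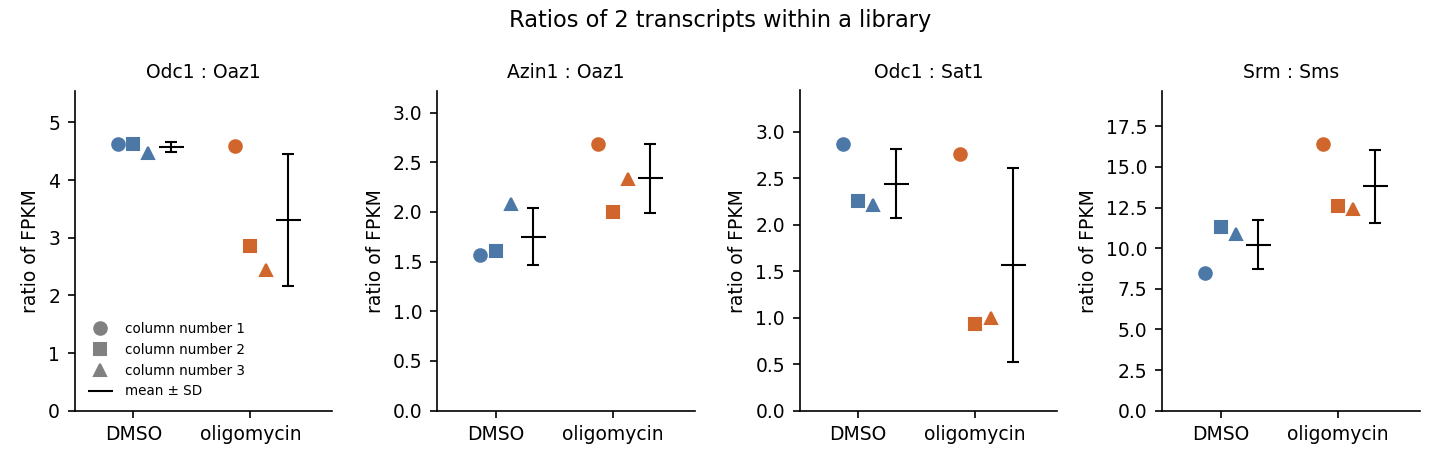
Ratio of the FPKM of 2 transcripts in each library (linear axes from 0), with DMSO in blue and oligomycin in orange, marker shapes for the column number and bars for mean ± SD (n = 3). Odc1 to Oaz1 is between 4.48 and 4.63 in the DMSO libraries and at 4.60, 2.86 and 2.44 with oligomycin, and Srm to Sms is the one ratio whose groups do not overlap.

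The other genes of the pathway were described from 5 lists, of which 41 of 62 genes had a row and were tested. Of these 41, 8 rose and 10 fell, 43.9% called, against the 30.2% of all tested genes given above. These lists were chosen with earlier results of these data known, so nothing particular to them is drawn from the counts.

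In the supply of arginine and ornithine, 2 of 7 tested genes rose and 3 fell, with a median log2 change of 0.32. Slc7a1, the main importer of arginine, rose from 29.8 ± 1.11 to 45.9 ± 7.49 FPKM (SD, n = 3 each, log2 change 0.59, adjusted p = 0.0121, limma). Aldh18a1, which makes the precursor of proline and ornithine from glutamate, rose from 61.9 ± 5.65 to 101.5 ± 14.3 FPKM (0.70, adjusted p = 0.00659). Genes that make or use arginine and ornithine elsewhere were among those that fell. Asl, which releases arginine from argininosuccinate, fell from 23.0 ± 1.98 to 12.7 ± 1.83 FPKM (-0.82, adjusted p = 0.00287). Gatm, which uses arginine for creatine synthesis, fell from 30.1 ± 14.8 to 8.71 ± 2.68 FPKM (-1.60, adjusted p = 0.00934), with DMSO libraries that ranged from 16.3 to 45.8. Oat, the mitochondrial aminotransferase that links ornithine and glutamate, stood at 68.4 ± 1.97 and 52.6 ± 4.46 FPKM (-0.37, adjusted p = 0.0353), a call lost under quantile normalization (0.0902), under equal sums (0.08004) and without any 1 library other than oligomycin replicate 1 (0.0847 to 0.106). The arginase genes Arg1 and Arg2 had no row and were not analysed here.

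In the supply of methionine and S-adenosylmethionine and the salvage of methylthioadenosine, the by-product of the aminopropyl transferases, 3 of 14 tested genes rose, 1 fell and 10 were not called (median log2 change 0.07). Slc3a2 and Slc7a5, the chains of a transporter that imports methionine and other large amino acids, rose from 48.3 ± 0.380 to 87.3 ± 12.2 FPKM and from 70.5 ± 2.78 to 118 ± 19.0 FPKM (log2 changes 0.83 and 0.72, adjusted p = 0.00237 and 0.00627, limma). Mtr, methionine synthase, rose by 0.69, from 10.9 ± 0.537 to 18.2 ± 0.921 FPKM (adjusted p = 0.00242). Ahcy, which clears S-adenosylhomocysteine, fell from 17.8 ± 2.29 to 11.1 ± 0.935 FPKM (-0.63, adjusted p = 0.00873, limma). Mat2a, the catalytic subunit of the enzyme that makes S-adenosylmethionine, stood at 91.2 ± 15.7 and 93.9 ± 15.4 FPKM (0.04, adjusted p = 0.865) in a row that shares its locus with 4930414L22Rik, and no salvage gene (Mtap, Mri1, Apip, Enoph1 or Adi1) was called.

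Of 5 tested genes for oxidation, export and transport, 1 fell and 0 rose (median log2 change -0.14). It was Smox, spermine oxidase, which turns spermine back into spermidine. Smox stood at 73.6, 70.4 and 56.0 FPKM with DMSO and at 43.5, 33.1 and 35.2 FPKM with oligomycin, with no overlap (log2 change -0.82, SE 0.15, adjusted p = 0.00516, limma). Its adjusted p lay between 0.00339 and 0.0239 in the 14 alternatives in which it was tested. The row of Smox carries a locus shared with 6 other rows, Cdc25b among them, so how reads were divided between these genes is uncertain. Atp13a3, a polyamine importer, was not called, and its row also carries a shared locus, with Lsg1, AI480653, Acap2 and Ppp1r2.

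Of 5 tested genes for further antizymes and for hypusine formation, 2 fell and 0 rose (median log2 change -0.46). Eif5a, the protein that spermidine modifies, stood at 725, 634 and 660 FPKM with DMSO and at 551, 354 and 380 FPKM with oligomycin, all below DMSO. Its log2 change was -0.68 (SE 0.19, adjusted p = 0.0277, limma) and its mean was 1.57-fold lower. Eif5a2, its paralog, fell from 12.1 ± 1.73 to 7.18 ± 1.53 FPKM (-0.69, adjusted p = 0.018). Dohh, the hydroxylase that completes hypusine, stood at 53.2, 59.4 and 56.9 FPKM with DMSO and at 51.2, 34.5 and 38.1 FPKM with oligomycin and missed the threshold (-0.46, adjusted p = 0.0513). Dhps, which performs the first step with spermidine, and the antizyme gene Oaz2 were not called. The row of Dhps shares its locus with that of Wdr83, so how reads were divided between them is uncertain. As with Odc1, oligomycin replicate 1 was the one nearest to DMSO for Eif5a and Dohh. Without that library Eif5a changed by -0.87 (adjusted p = 0.00344) and Dohh by -0.62 (adjusted p = 0.00657). The call of Eif5a was lost without any 1 of the other libraries (adjusted p from 0.0565 to 0.0943), and that of Eif5a2 without DMSO replicate 1 (0.0555) or DMSO replicate 3 (0.0713).

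**Figure D4:**
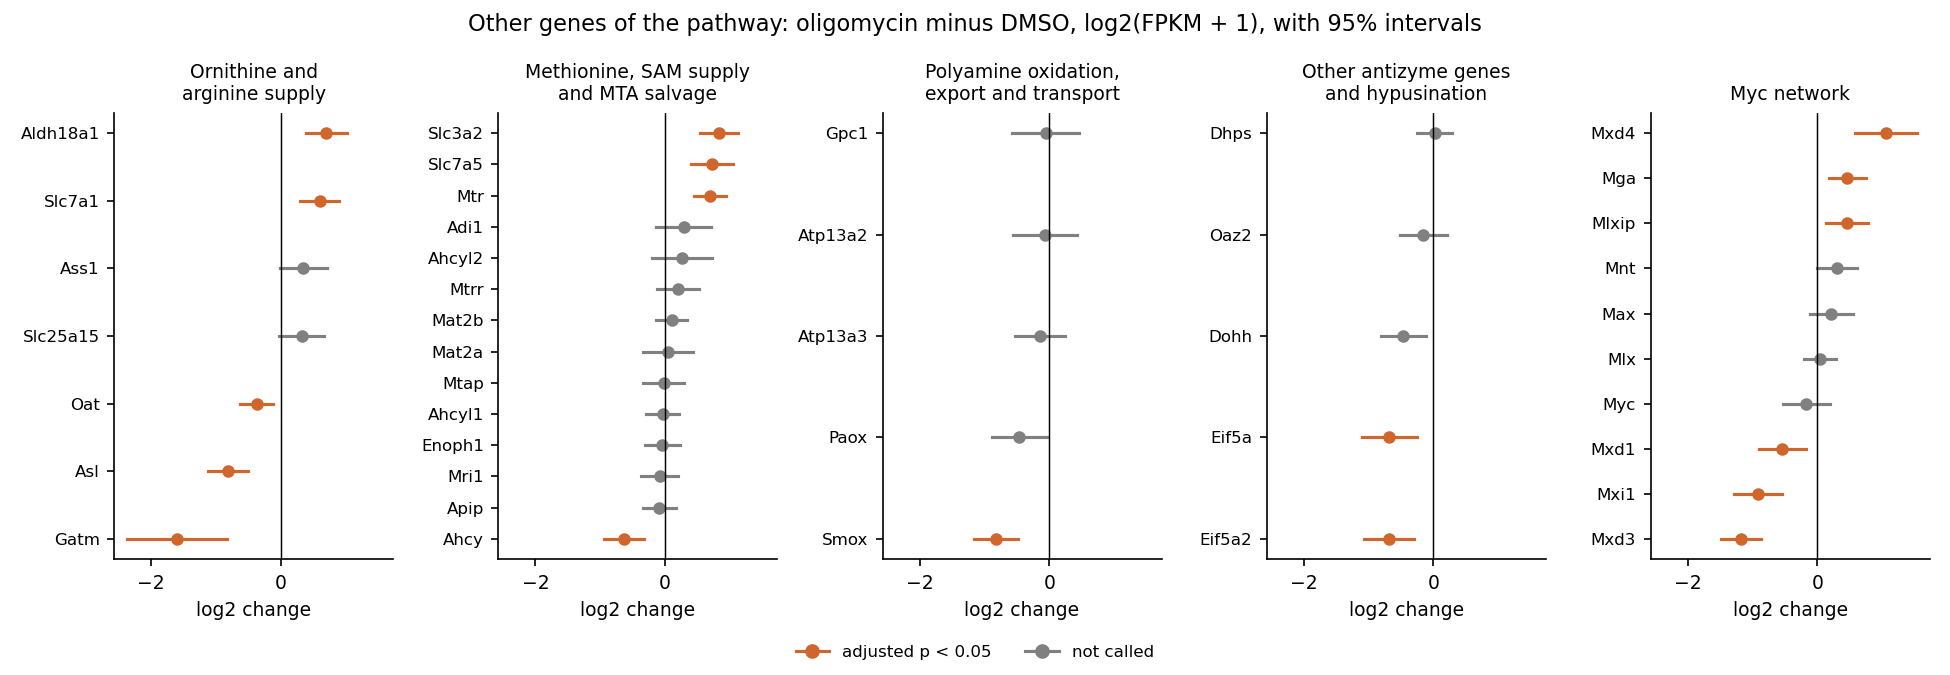
Log2 change, oligomycin minus DMSO on the log2(FPKM + 1) scale, of the 41 tested genes in 5 lists, with 95% intervals from limma and genes at an adjusted p under 0.05 in orange. Slc3a2, Slc7a5, Mtr, Aldh18a1 and Slc7a1 lie above 0, and Smox, Eif5a, Eif5a2 and Ahcy below it.

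Odc1 is a textbook target of the transcription factor Myc, so the Myc network was listed as well. Myc itself stood at 46.5, 60.9 and 60.6 FPKM with DMSO and at 58.3, 48.5 and 42.2 FPKM with oligomycin and was not called (log2 change -0.17, 95% interval -0.54 to 0.19, adjusted p = 0.435, limma). Of 10 tested genes of the network 3 rose and 3 fell. Mxd4, which encodes a repressor that competes with Myc for its partner Max, rose from 8.18 ± 2.05 to 18.2 ± 4.49 FPKM (1.06, adjusted p = 0.00682), and Mga, which also binds Max, rose by 0.46 (adjusted p = 0.0263), a call lost when DMSO replicate 2 (0.0899), DMSO replicate 3 (0.0659) or oligomycin replicate 3 (0.0792) was left out. Mxd3 and Mxi1, of the same repressor family, fell by 1.18 and 0.92 on the log2 scale (adjusted p = 0.000555 and 0.00432). Also called were Mxd1 of that family, lower (-0.54, adjusted p = 0.0328, limma), and Mlxip, higher (0.45, adjusted p = 0.0422, limma). The calls of Mxd1 and Mlxip were not followed singly through the alternatives. The row of Mxd3 shares its locus with that of Prelid1, so how reads were divided between them is uncertain.

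Over the 6 libraries, the transcripts whose log2(FPKM + 1) followed Odc1 most closely among 7705 compared were Snx3 (Pearson r = 0.996), Atl2 (0.996) and Chaf1b (0.995). Those most like Sat1 were Mphosph9 (0.958), Inpp1 (0.949) and Uhrf2 (0.932). With 6 points that share their libraries, and with so many genes compared, these are descriptions only. For Sat1 the values moved with the setting: r was 0.612 for Mphosph9 under quantile normalization, and without oligomycin replicate 1 it was 0.864 for Mphosph9, 0.753 for Inpp1 and 0.602 for Uhrf2.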

How the data were processed

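RNA-seq values of 6 libraries were deposited by the authors as FPKM, 1 per gene and library. That unit is read from the Cufflinks tools and the table's layout, as the header does not name it. The build was GRCm38 (mm10) and the tools were Cuffdiff 2.2.1.3, Cuffnorm 2.2.1.1, Cufflinks 2.2.1.0 and TopHat2 2.1.0, per the submitters' processing notes. No source used here gives the annotation, scaling, filters, strand or depth, and low values showed no common step from which reads could be recovered. Sample titles carry the numbers 17, 42 and 43, each in both groups, with no word on what they mark. Columns name the group with numbers 1 to 3 instead, and whether these follow the title numbers is not known, so columns were assigned to groups only, and replicate numbers here are column numbers. Starts are printed counted from 1.

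Genes with at least 1 FPKM in at least 3 of 6 libraries were tested on log2(FPKM + 1), whose pseudocount understates changes of low genes, with limma 3.58.1 (R 4.3.3, intensity trend, group only, 2-sided, Benjamini-Hochberg over all genes tested, called at 0.05). Errors are SD over 3 libraries or the SE of the fit, and folds are ratios of mean FPKM. In a simulation of this comparison with 9938 genes, 90 of 100 genes changed by 1 and 15 of 100 changed by 0.5 were called, and 10 of 9738 unchanged genes. The simulation changed far fewer genes than were called in the data and drew the noise of each gene independently. Its shares therefore do not give the power or the false calls of the real comparison. Within-library ratios were tested by exact permutation. Coding sequences were aligned with Biopython 1.88.

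The members and lists were chosen with earlier results of these data known. Named genes are the 7 members, up to 4 called genes of each list with the smallest p, Myc, Eif5a, Arg1, Arg2, Smox and Mat2a, and the 3 genes most like Odc1 or Sat1 (mean of at least 5 FPKM). Oat, Dohh, Mxd1, Mlxip and the 3 Th17 genes were added after their values were seen. So were, as genes not called, Mtap, Mri1, Apip, Enoph1, Adi1, Atp13a3, Dhps and Oaz2. Alternatives were the pseudocount, filter, scaling, trend, replicate block, shared loci and each library left out.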

Additional observations from a re-analysis of the deposited data

How the results depend on the processing

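Over all genes tested the number called was 3013 and lay between 2458 and 3532 under the alternatives that kept all libraries. With 1 library left out it ran from 1769 (without DMSO replicate 3) to 3248. Scaling to equal sums without small RNA rows moved the median of all genes by 0.1038 on the log2 scale and the split of calls from 1403 higher and 1610 lower to 1915 and 1278. Of the 7 members, 0 were called under quantile normalization, where Odc1 was at -0.66 (adjusted p = 0.0506), and from 0 to 2 with 1 library left out. Leaving out single libraries gave Odc1 values from -1.11 to -0.64, Sms from -0.51 to -0.36, Srm from -0.30 to 0.071, Sat1 from -0.18 to 0.21, Oaz1 from -0.43 to -0.18, Azin1 from -0.031 to 0.32 and Amd1 from -0.23 to 0.012. Under quantile normalization Srm was 0.063 and Sat1 0.13, and under equal sums Srm was 0.042 and Sat1 0.088. Mat2a ran from -0.065 to 0.18 with single libraries left out. The title numbers 17, 42 and 43, which occur in both groups, could not be matched to columns, so a pairing by them was not tested. Whether equal column numbers mark pairs is not known. Deviations of libraries with the same number correlated at 0.0556, 0.247 and 0.132. Oligomycin replicate 1 correlated better with DMSO replicate 3 (0.117), and each other library correlated best with its own number. With that number as a replicate block, 3532 genes and 2 members were called by limma. These were Odc1 at -0.84 (SE 0.13, adjusted p = 0.00473) and Sms at -0.42 (adjusted p = 0.0462). Called genes of the hypusine list numbered from 0 to 3 and of the Myc list from 3 to 6 with single libraries left out. Smox was not tested without rows sharing a locus, and its list then had 0 called genes, while the hypusine list had 3. Without oligomycin replicate 1 the log2 difference was -0.79 for Odc1 to Oaz1 and -1.33 for Odc1 to Sat1. The 4 ratios kept their direction under every alternative run. The cause of these changes was not tested. Depth is unknown, so no limit from counting can be given.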
